A study of Mus musculus with 4 samples.

Results

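The ephrins, semaphorins, plexins, Eph receptors and neuropilins were described in sorted hair follicle stem cells (HF-SCs) of mouse back skin. Members are the genes of the deposited table whose symbol begins with Epha, Ephb, Efna, Efnb, Sema3 to Sema7, Plxna, Plxnb, Plxnc or Plxnd, or is *Nrp1* or *Nrp2*, and whose mean normalized count is above 0. Of 54 such names, 51 had a mean above 0 and are the members, out of 17044 genes with a mean above 0. The names *Epha5*, *Epha6* and *Plxna4os1* were listed at 0. The samples are 2 control and 2 miR-205-induced libraries of bulk RNA-seq, a measure of all RNA of a pool of cells. The induced mice carry a pTRE2-miR-205 transgene, made in FVB mice, and a *Krt14*-rtTA transgene, so that doxycycline switches on miR-205 wherever the *Krt14* promoter is active, which includes epithelial cells of the skin outside the bulge. All mice carried the *Krt14*-H2BGFP allele, were labelled C57BL/6 and were sampled at postnatal day 44. The induced mice ate doxycycline chow for 2 d from postnatal day 42. The treatment labels call the control mice untreated, whereas the extraction protocol and the study's methods have control and induced mice alike fed doxycycline. The sources therefore differ on what the control mice ate. The methods also describe control and induced mice as matched for sex. Live HF-SCs were sorted as H2BGFP-high, Sca1-negative, α6-high and CD34-high cells.

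The question of the study, what a short miR-205 induction does to these cells, was not answered here for these genes. The deposited table has a fold change, its standard error, a test statistic and p-values from the comparison made by the authors, which were not used, and no column for a single library. What it gives for each gene is the mean normalized count over all 4 libraries, that is, reads divided by a size factor that evens out sequencing depth. The reads of each library could still be recovered from the decimals of this mean, because only whole reads can add up to it. The 4 libraries obtained in this way carry no name. They are called A, B, C and D in the order of their size factors, 0.716, 0.966, 1.18 and 1.24, and none was assigned to a group. All differences between libraries given below are therefore differences between unlabelled libraries, with no test of induced against control. They hold the spread between samples and any effect of induction together, and these cannot be told apart.

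Ephrins are ligands bound to the cell membrane, ephrin-As by a lipid anchor and ephrin-Bs by a membrane-spanning segment, and they bind Eph receptor tyrosine kinases on neighbouring cells. Signals run into the cell with the receptor and into the cell with the ligand, and commonly end in repulsion or adhesion through small GTPases and the actin cytoskeleton. Semaphorins are secreted or membrane-bound ligands of the plexins, receptors whose intracellular part acts on small GTPases. Most class 3 semaphorins are secreted and need a neuropilin as co-receptor of a plexin-A. Both systems were first known for steering axons and blood vessels, and Eph and ephrin genes also act in skin epithelium and hair follicles.

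Reads were recovered for every member with a mean of up to 1000, 34 genes, for which a single combination of 4 whole numbers gives the deposited mean. Of the 17 members above this mean, 9 had a single combination in which the highest library is at most 3 times the lowest, a limit that 99.5% of genes with a mean between 500 and 1000 keep. The other 8, *Epha2*, *Plxna2*, *Ephb6*, *Sema3e*, *Sema3c*, *Plxnb2*, *Efna1* and *Plxnb1*, are given by the mean of the authors alone. The means of all genes add up to 13085835 normalized counts, and the deepest library had 1.73 times the size factor of the shallowest. Of the hair follicle stem cell markers, 12 of 12 had a mean over 50, against 60.7% of all genes with a mean above 0. They ran from 590.3 for *Tcf7l1* to 146090.4 for *Krt5*, with 14575 for *Cd34*. The sort itself used CD34, α6, which *Itga6* encodes, and H2BGFP under the *Krt14* promoter, so these genes do not check cell identity. *Krt5* and *Krt14* serve in the paper as markers of epithelial cells in general. Markers of other cells were present too. The highest of the lists given here were 10749 for the suprabasal *Sbsn*, 5186 for the fibroblast *Col1a1* and 3085 for the sebaceous *Scd1*. Then came 2744 for the myeloid *Cd74* and 2024 for *Mitf* of the melanocyte list, whose next gene by mean, *Dct*, had 498. *Thy1*, which T cells and other cells express, had 1043 and the muscle gene *Cnn1* 99.8, while no endothelial marker passed 51.3, the mean of *Tek*. In bulk RNA, a level cannot tell fewer cells that express a gene from less RNA per cell.

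Most members were expressed, and the family spanned a wide range. A mean over 50 was reached by 36 of 51 members, or 70.6%, against 60.7% of all genes with a mean above 0. A mean over 1000 was reached by 17 members, or 33.3%, against 14.4% of all genes. To compare genes, each mean was divided by the kilobases covered by all annotated exons of the gene. On this scale the members had a median of 27.7 normalized counts per kilobase, against 40.9 over the 15317 genes with a length. The highest were *Epha2*, *Efna1* and *Ephb6*, with 3464, 1820.2 and 1343 normalized counts per kilobase. The highest plexin, *Plxna2*, followed with 705. With the coding length in place of all exons *Epha2* and *Efna1* were still the highest, but *Efnb2* came next, with 2899.5 per kilobase, and *Ephb6*, with 1665, and *Plxna2*, with 1874, came behind further members.

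**Figure D1:**
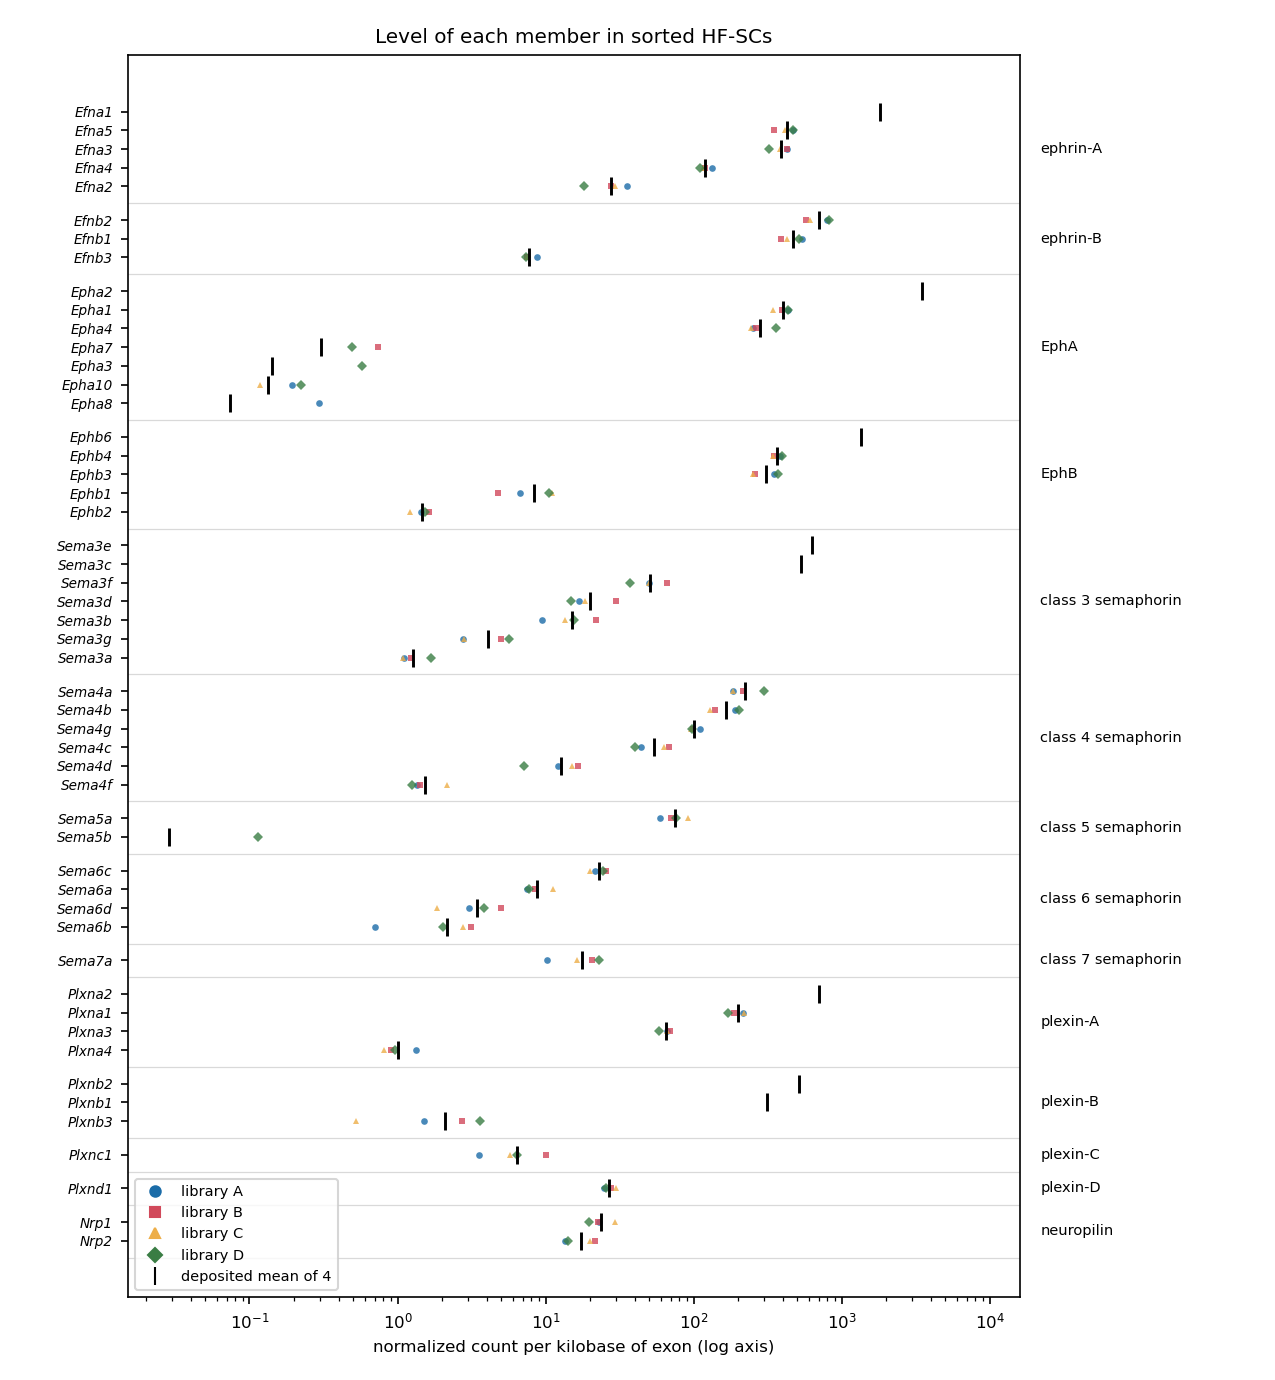
Level of the 51 members in HF-SCs, by class. The horizontal axis is the normalized count per kilobase of exon on a log axis, coloured points are the 4 unlabelled libraries where their reads were recovered (a library with 0 reads is not drawn), and the black tick is the deposited mean. The ticks run from 0.0285 for *Sema5b* to 3464 for *Epha2*.

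EphA receptors, which mainly bind ephrin-As, had few members at high levels and the rest near 0. *Epha2*, known as the main EphA receptor of the epidermis, had a mean normalized count of 16192, the highest of all members and at percentile 99.6 of all genes with a mean above 0. It lies at NCBIM37 chromosome 4, 140857155 to 140885299, and it made up 83.6% of the summed level per kilobase of the 7 EphA members. The second by mean was *Epha4*, which also binds ephrin-Bs, with 1587 in library A, 1664 in B, 1548 in C and 2284 in D, and a deposited mean of 1771. Library D stood above the other 3, and the 95% counting intervals of the highest and lowest library did not overlap. *Epha1* followed with 1413 in library A, 1289 in B, 1126 in C and 1422 in D. Its libraries A and D were nearly equal and C was lowest, and per kilobase of exon *Epha1* had 401 and *Epha4* 279.9, an order that turned with the coding length, which gave 448 and 599. For *Epha1* a further combination of reads lay just outside the ratio limit, so its library values are less certain than its mean. The other 4 members, *Epha7*, *Epha10*, *Epha3* and *Epha8*, had means from 0.349 to 3.02. *Epha7* had 7 reads in library B, 6 in D and 0 in A and C, *Epha3* had 4 reads, all in D, and *Epha8* had 1 read, in A. No comparison between libraries can be made at such counts.

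EphB receptors mainly bind ephrin-Bs. *Ephb6*, whose kinase domain lacks activity, had the highest mean of the 5, 5066, and 66.2% of their summed level per kilobase. *Ephb3* was second by mean, at 1937, with 2194 in library A, 1635 in B, 1578 in C and 2339 in D. Libraries A and D were high and B and C low, with a ratio of highest to lowest of 1.48. *Ephb4*, a receptor of ephrin-B2 known from the parting of arteries and veins, had a mean of 1704 and the smallest spread of the 28 members over 50 with library values, with 1770.1 in library A, 1629.9 in B, 1594 in C and 1821 in D. The order of the libraries was that of *Ephb3*, with a ratio of 1.14. Per kilobase *Ephb4* and *Ephb3* stood close, at 367 and 308, an order that turned with the coding length, which gave 570 and 650. *Ephb1* and *Ephb2* were low, with means of 53.8 and 18.4. *Ephb1* had the widest spread of these 28 members, 43.3 in library A, 31.0 in B, 72.1 in C and 68.7 in D, with C and D above A and B, on 30 to 85 reads a library.

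Ephrin-A genes were all over a mean of 50. *Efna1*, the ligand with the highest level per kilobase, had a mean of 3331 and 65.4% of the summed level per kilobase of the 5. *Efna5* was second by mean, at 1722, with 1903 in library A, 1416 in B, 1673 in C and 1896 in D. Libraries A and D were nearly equal, C lay below them and B was lowest. *Efna3* had a mean of 948 and another order, with 1041 in library A, 1037 in B, 931 in C and 783 in D. *Efna4* and *Efna2* had means of 191 and 59.0, and D was the lowest library for each of *Efna3*, *Efna4* and *Efna2*. *Efna1*, *Efna3* and *Efna4* are neighbours on NCBIM37 chromosome 3, at 89075655 to 89085064, 89117821 to 89126887 and 89137312 to 89141950, all on the minus strand. Their levels were 1820.2, 389 and 119 per kilobase. In the annotation, 14.1% of the exon bases of *Efna3* and 10.5% of those of *Efna4* are also exon of another gene, and how reads there were counted is not given in the sources used here.

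Of the ephrin-B genes, *Efnb2* and *Efnb1* were high and *Efnb3* low. *Efnb2*, which marks arteries and also binds EphA4, had a mean of 3358, with 3815 in library A, 2749.6 in B, 2933 in C and 3933 in D. Libraries A and D were high and B and C low, with a ratio of highest to lowest of 1.43. *Efnb1*, an X-linked ligand, had a mean of 1612 with the same libraries high and low, 1848 in library A, 1335 in B, 1477 in C and 1787 in D. Per kilobase they had 701 and 467. *Efnb3*, known best from the nervous system, had a mean of 24.7, on 20 to 29 reads a library.

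**Figure D2:**
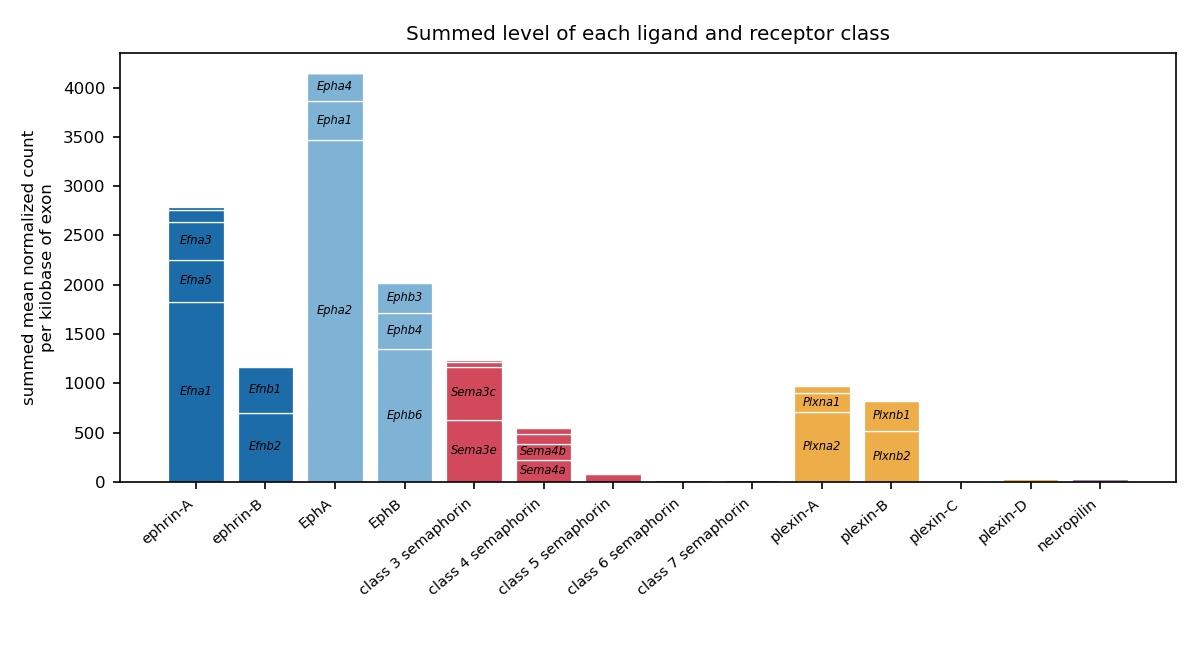
Summed level of each class. Each bar stacks the mean normalized counts per kilobase of exon of the members of a class, and members over 150 are named. The EphA bar reaches 4146 and that of the neuropilins 40.9.

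Secreted class 3 semaphorins were split between a pair of high genes and a low remainder. *Sema3e*, which binds plexin-D1 without a neuropilin, had a mean of 4768, and *Sema3c* one of 3816. Per kilobase they had 629 and 534, together most of the class sum of 1255. *Plxnd1*, the receptor of *Sema3e*, was much lower, with 26.998 per kilobase and 177 in library A, 199 in B, 216 in C and 184 in D, whose counting intervals overlapped. *Sema3f*, a ligand of neuropilin-2, had a mean of 177 and 173 in library A, 229 in B, 175 in C and 130.2 in D. Its library B was high and D low. *Sema3d* had 116 in library A, 206 in B, 127 in C and 103 in D, so that B stood above the other 3 libraries, with a ratio of 2.01. *Sema3b* had a mean of 64.4 and 40.5 in library A, 93.1 in B, 57.7 in C and 66.3 in D, again with B highest. *Sema3g* and *Sema3a* lay under 50, with means of 18.5 and 12.9. *Sema3b* and *Sema3f* lie near each other on NCBIM37 chromosome 9, at 107500005 to 107511560 and 107583833 to 107612806.

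Class 4 semaphorins span the membrane and mostly bind plexin-Bs. *Sema4a* was highest, with 991 in library A, 1172 in B, 1004 in C and 1621 in D and a mean of 1197. Its library D was high and the other 3 lay between 991 and 1172. *Sema4b* had a mean of 901 and 1040.0 in library A, 759.6 in B, 703 in C and 1101 in D, with A and D high and B and C low. *Sema4g* was nearly level over B, C and D, with 542 in library A, 479 in B, 467 in C and 473 in D. *Sema4c*, a ligand of plexin-B2, had the other pair of libraries high, with 204 in library A, 311 in B, 288 in C and 184 in D, so that B and C stood above A and D. *Sema4d*, the ligand of plexin-B1 and abundant in immune cells, had 78.2 in library A, 107 in B, 96.7 in C and 46.1 in D, at a mean of 81.9. B and C were its highest libraries, but A lay nearer to C than to D. The counting intervals of A and C overlapped, so the 4 libraries of *Sema4d* did not part into pairs as those of *Sema4c* did. The summed level of the 6 myeloid markers, mostly *Cd74*, was 2858 in library A, 4697 in B, 5475 in C and 2540.0 in D. This sum was highest in the same libraries, B and C. *Cd74*, *Lyz2*, *Ptprc* and *Csf1r* each had B and C highest, but *Cd207* and *Cd68* did not. In the order A, B, C and D, *Cd207* had 205, 324, 189 and 256, and *Cd68* had 120, 241, 203 and 217. *Cd3e* and *Cd3g*, markers of T cells, had means of 9.52 and 4.85. The part of myeloid cells and T cells in the values of *Sema4d* was not tested. *Sema4f* had a mean of 7.93.

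The remaining semaphorins were lower, apart from *Sema5a*, a membrane protein with thrombospondin repeats. It had a mean of 900.5 and 718 in library A, 849.6 in B, 1112 in C and 923 in D, with C high and A low. *Sema5b* had 1 read in all 4 libraries together. Class 6 semaphorins, membrane ligands of plexin-As, had means from 8.58 for *Sema6b* to 136 for *Sema6c*. *Sema6c* had 128 in library A, 152 in B, 118 in C and 144 in D, and *Sema6a* 65.6 in library A, 74.5 in B, 97.6 in C and 67.1 in D, and for each of them the counting intervals of the highest and lowest library overlapped. *Sema6d* had a mean of 36.2. *Sema7a*, a lipid-anchored ligand of plexin-C1 and of integrins, had a mean of 57.6 and 33.5 in library A, 68.3 in B, 53.4 in C and 75.2 in D, with A lowest. Its receptor *Plxnc1* had a mean of 45.4 and 18 to 68 reads a library, and A was lowest here too.

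Plexin-As and plexin-Bs were the high plexins. *Plxna2* had a mean of 10645, the second highest of all members, and 72.8% of the summed level per kilobase of the 4 plexin-As. *Plxna1* had a mean of 1785 and 1949 in library A, 1692 in B, 1960.4 in C and 1541 in D, with A and C nearly equal and D lowest. In the annotation 10.7% of its exon bases are shared with another gene. *Plxna3* had 523 in library A, 543 in B, 518 in C and 458 in D, with D lowest. *Plxna4*, which mostly works in neurons, had a mean of 12.6. Among plexin-Bs, *Plxnb2*, which acts in epithelial tissues, had 3756 and *Plxnb1* 2785, or 513 and 311 per kilobase, whereas *Plxnb3* had a mean of 13.6. For *Plxnb3* the reads were 7 in A, 17 in B, 4 in C and 29 in D.

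The neuropilins had a lower level per kilobase than *Sema3c*, a class 3 ligand that binds them. *Nrp1* had a mean of 139.8 and 135 in library A, 132 in B, 175 in C and 116 in D, with C high. *Nrp2* had a mean of 164 and 128 in library A, 204 in B, 189 in C and 134 in D, with B and C high and A and D low. Per kilobase *Nrp1* had 23.7 and *Nrp2* 17.2, against 534 for *Sema3c*. With the coding length *Nrp1* had 50.5 and *Nrp2* 58.7, so that their order turned, against 1694 for *Sema3c*. Since neuropilins and *Plxnd1* are abundant in endothelial cells, the summed level of the 6 endothelial markers was set beside them. It was 78.2 in library A, 185 in B, 151 in C and 180.3 in D, and all 6 were above 0, with means from 5.63 to 51.3. Library A was the lowest for this sum, for *Nrp2* and for *Plxnd1*, and library B the highest for the sum and *Nrp2*. Library D differed, since it was close to the highest for the sum but close to the lowest for *Nrp2*. For *Nrp2* the counting intervals of A and D overlapped, and for *Plxnd1* those of the highest and lowest library did. *Plxnd1* was highest in C, and *Nrp1* was lowest in D. *Kdr*, *Pecam1* and *Cldn5* had A lowest and B highest, while *Tek* and *Cdh5* were highest in D and *Emcn* lowest in D. The suprabasal, sebaceous, fibroblast, melanocyte and T cell sums given below were also lowest in A and highest in B. Not every gene in them was, and the T cell sum was mostly *Thy1*. The part of endothelial cells in these levels was not tested.

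Spread between libraries was wider than counting error for most members. In the range of means over 50 and up to 1000, where every gene has its reads, the 95% exact Poisson intervals of the highest and lowest library did not overlap for 14 of 19 members. The same held for 54.7% of all 7889 genes in this range. Without library D the number of members was 8 of 19, beside 35.3% of the genes, and without library B it was 9, beside 41.0% of the genes. These intervals cover counting error only. The ratio of the highest to the lowest library had a median of 1.57 over the members and of 1.31 over all these genes, and 5 members passed a ratio of 2, where 7.42% of all genes did. Low genes have larger ratios. Within means over 50 and up to 100 the medians were 2.27 over 6 members and 1.57 over all genes, and within means over 200 and up to 1000 they were 1.44 over 6 members and 1.25 over all genes. The 3 widest were *Ephb1*, *Sema4d* and *Sema3b*, at 2.32, 2.31 and 2.30. Library D was the lowest for 9 of the 19 members and for 30.9% of all genes, and library B the highest for 8 of 19 and for 26.5%.

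**Figure D3:**
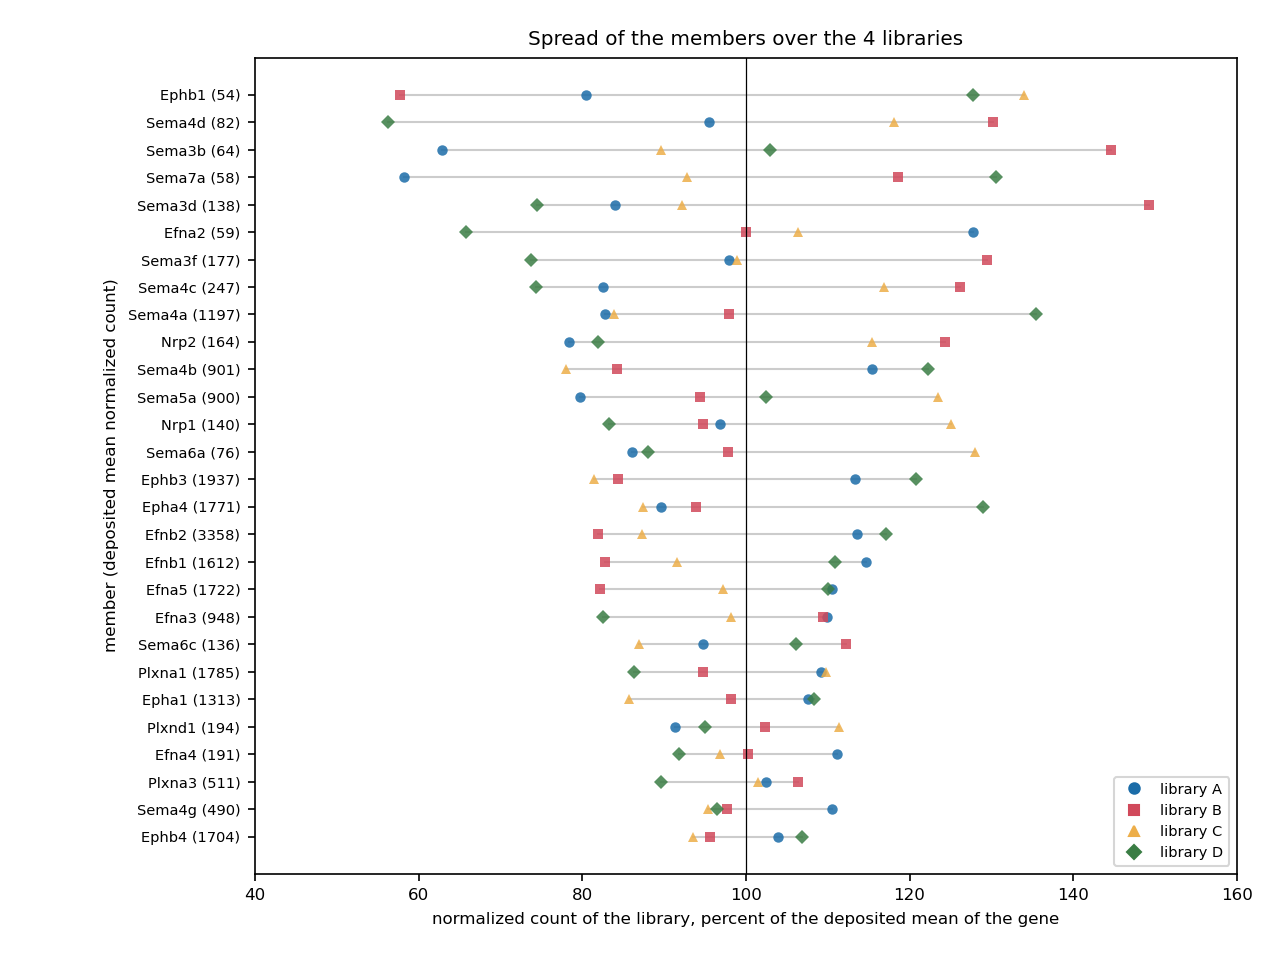
Normalized count of each library as a percent of the deposited mean, for the 28 members over 50 with recovered reads. The number after a name is its deposited mean, points are the 4 unlabelled libraries, and members are ordered by the ratio of the highest to the lowest, from 2.32 for *Ephb1* to 1.14 for *Ephb4*. Points lie between 56.3% and 149%.

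**Figure D4:**
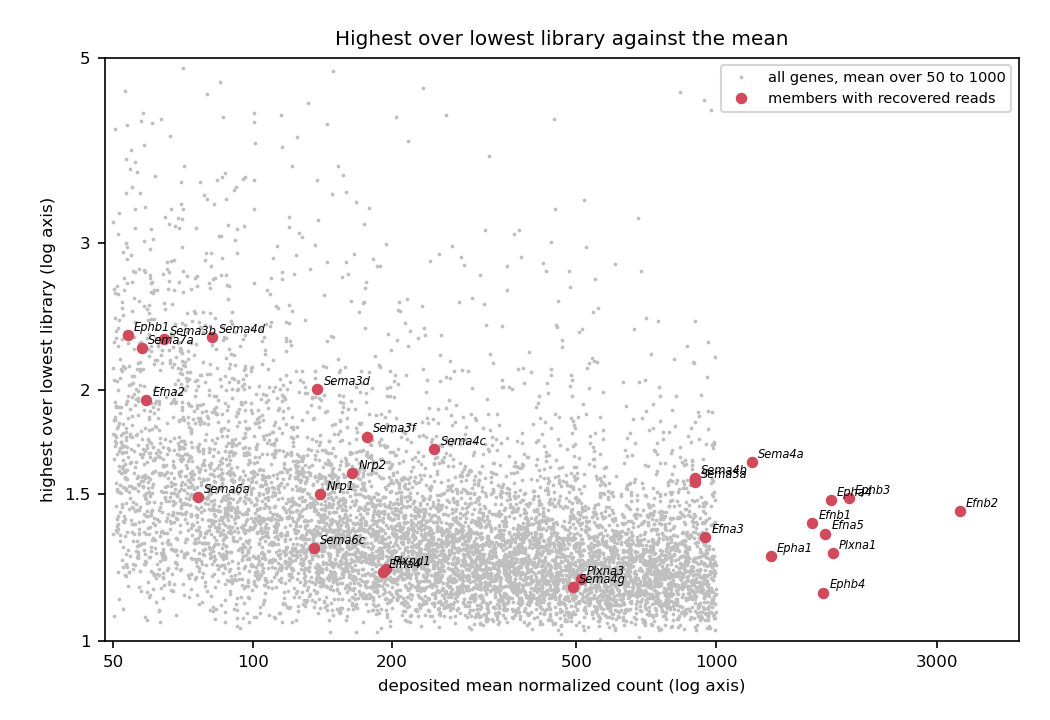
Ratio of the highest to the lowest library against the deposited mean, both on log axes. Red points are the 28 members with recovered reads and a mean over 50, and grey points are 7847 genes with means over 50 and up to 1000, while 42 more lie above a ratio of 5 or have 0 reads in a library. Above a mean of 1000 the members lie between 1.14 for *Ephb4* and 1.64 for *Sema4a*.

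The partners and effectors of these receptors were mostly present. Of a list of 87 names, 86 were matched in the table, the other, *Grb4*, being an older name of the listed *Nck2*. A mean over 50 was reached by 72 of the 86, against 60.7% of all genes with a mean above 0. These were 10 of 15 co-receptors and signalling partners, 5 of 5 proteases, 23 of 28 Eph effectors and 34 of 38 plexin effectors. Per kilobase the highest was *Cfl1*, the actin-severing cofilin, with 5099. Then came *Itgb1*, an integrin chain, with 1989, *Rap1b*, a GTPase that plexins inactivate, with 1798, and the GTPases *Rhoa* and *Rac1* with 1501 and 1322. *Arhgdia*, which holds small GTPases inactive, had 1218. *Abl2*, a kinase downstream of Eph receptors, had 1065. *Rnd3* and *Rras*, small GTPases, had 815 and 665, and *Ryk*, a Wnt co-receptor that forms complexes with Eph receptors, had 657. The median of the list was 104 per kilobase, against 40.9 over all genes with a length.

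Because miR-205 was the agent of the study, its pairing sites in the members are shown. The mature miRNA, from RefSeq with the build GRCm38.p6, has its seed, bases 2 to 8, in capitals.
miR-205-5p: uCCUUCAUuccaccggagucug
The reverse complement of this seed, ATGAAGG in the DNA letters of the sense strand, was looked for in the longest 3′UTR of each gene in the GENCODE vM1 protein-coding transcripts. It was found in 6 of 51 members, or 11.8%, against 11.1% of the 14415 genes with a 3′UTR. The median 3′UTR was longer in the members, 1606 against 1023 bases. The sites are printed with up to 10 bases on each side and the match in capitals, to show which members hold one.
Ephb2 (NCBIM37 chr4:136210811-136210817, minus strand, exon 16 of 16, 3′UTR base 420): gaacattaacATGAAGGgaagaggtga
Plxna2, site 1 (NCBIM37 chr1:196640842-196640848, plus strand, exon 32 of 32, 3′UTR base 2487): aagaatgtagATGAAGGgagaagggcc
Plxna2, site 2 (NCBIM37 chr1:196642749-196642755, plus strand, exon 32 of 32, 3′UTR base 4394): atgcaggcacATGAAGGccttgagcca
Plxnd1 (NCBIM37 chr6:115905527-115905533, minus strand, exon 36 of 36, 3′UTR base 225): caactctaggATGAAGGccttgaatat
Sema3d (NCBIM37 chr5:12587070-12587076, plus strand, exon 18 of 18, 3′UTR base 1768): aaaagcaaaaATGAAGGaacaatttta
Sema4c (NCBIM37 chr1:36605959-36605965, minus strand, exon 15 of 15, 3′UTR base 419): ctttggagctATGAAGGggaagggggt
Sema5a, site 1 (NCBIM37 chr15:32619653-32619659, plus strand, exon 23 of 23, 3′UTR base 483): aattcacagaATGAAGGtgtggctaat
Sema5a, site 2 (NCBIM37 chr15:32623676-32623682, plus strand, exon 23 of 23, 3′UTR base 4506): atcttataaaATGAAGGaaatgtgttg
All of these lie in the last exon of the transcript searched. The sites at *Sema3d* and the second at *Sema5a* are followed by an A, which extends the match to ATGAAGGA. The means of the 6 genes ran from 18.4 for *Ephb2* to 10645 for *Plxna2*. A match of letters is a description of sequence and does not show that miR-205 acts there. The gene *Mir205* itself had 8 reads in library A, 1 in B, 8 in C and 17 in D, and with no library assigned to a group these reads do not check the induction.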

How the data were processed

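Per the labels and the study's methods, RNA of sorted HF-SCs was taken up in TRIZOL, made into NEBNext Ultra Directional libraries and sequenced in pairs on an Illumina NovaSeq. The submitters' processing notes name HISAT2 2.1.0, SAMtools 1.3.1, HTSeq and DESeq2. The genome is mm10 in these notes and NCBI37/mm10 in the methods, which are different builds, and no source used here gives the annotation or the strand setting. The authors deposited, as a signal, the mean normalized count of each gene over all 4 libraries, reads counted per gene and divided by size factors. The other 5 columns hold their induced against control comparison (fold change, standard error, statistic and p-values) and were not used. The number of per-sample columns was 0.

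Size factors and whole reads of each library were recovered from the 15 digits of the mean, in Python 3.11.15 with numpy 2.4.6, by a search over all combinations up to a mean of 1000 and, above it, over those with a highest to lowest ratio of at most 3. The search up to a mean of 1000 was tested on simulated data, where all 14040 genes with a single combination had the right reads. The search with the ratio limit was not tested above 1000. On 190 genes with means between 500 and 1000 it gave the same reads as the full search for 189. No label or column name ties a recovered library to a sample, so libraries were given one by one, with no group mean, SD or test of induction. Counting intervals and Dixon's critical value were used only between unlabelled libraries. The labels do not say whether the libraries come from separate mice, and the methods say in general that RNA-seq was done on pairs of control and inducible mice, with littermates as controls. Exon lengths, positions and 3′UTRs are from NCBIM37 with GENCODE vM1, not the labelled build, matched by symbol for 51 of 51 members and 15317 genes. Intervals are exact Poisson intervals at 95% and cover counting error only.

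Members, the gene lists and the minimum mean of 50 were chosen with earlier results of these data known. Genes were named by rule, as the 2 highest means of each class with every value, the other members over 50 with their level, all members with a seed match, the 3 widest spreads over libraries and the 10 highest of the partner list per kilobase. A further marker list is not reported here. Alternatives were another gene length, minimums of 10 and 200, other scalings, leaving out each library, and other seed matches and 3′UTRs. The counting-interval rule, the bands of means and the pairs of libraries were chosen after the data were seen.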

Additional observations from a re-analysis of the deposited data

Results flagged for a closer look

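Of 43 members with recovered reads, 7 had a highest library whose gap to the next, divided by the range over the 4 libraries, passed Dixon's 95% critical value, whose nominal rate of 1 in 20 does not hold for members with few reads. Among means over 50 and up to 1000 it was passed by 1 of 19 members, or 5.26%, and by 5.43% of 7889 genes. Members over a mean of 50 were 2 of these. *Epha4* reached 2284 in library D, on 2825 reads, where the other 3 lay between 1548 and 1664. *Sema4g* reached 542 in library A, on 388 reads, where the other 3 lay between 467 and 479, and the counting intervals of its highest and lowest library overlapped. The other 5 had few reads. *Efnb3* had 27.9 in A, on 20 reads, and *Sema4f* had 11.03 in C, on 13 reads. *Epha3* had 3.23 in D, on 4 reads, *Epha8* had 1.396 in A, on 1 read, and *Sema5b* had 0.809 in D, on 1 read, each with 0 reads in the other 3 libraries, which fixes the ratio at 1. No library is assigned to a group, and the cause was not tested.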

How the results depend on the processing

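The median level of the members was 27.7 normalized counts per kilobase of exon, 28.1 with the longest transcript and 75.03 with the coding length, which leaves out UTRs and also changes the order of the members. Over the 43 members with library values it was 19.9, and 16.6 to 21.6 when each library was left out. A minimum mean of 10 or 200 in place of 50 left 44 or 23 members in place of 36. The median ratio of highest to lowest library, 1.57, was 1.36 to 1.501 when each library was left out, by construction no larger, and 1.44 with a minimum of 200. The number of members whose intervals did not overlap, 14, of 19, was 8 to 13 of 19 when each library was left out, beside 35.3% to 46.2% of all genes, and 5 of 6 with a minimum of 200, beside 61.8% of all genes up to a mean of 1000. In an alternative chosen after seeing the data, the 9 recovered members over a mean of 1000 were added, which gave 1.48 and 23 of 28, with no share of all genes since their reads above 1000 were not recovered. Scaling by total reads or by the upper quartile left 14. A seed match of 8 bases was found in 2 members (3.92%, against 3.96% of genes) and one of 6 bases in 22 (43.1%, against 34.4%), in place of 6 members with 7 bases. With the shortest 3′UTR the 7 bases were found in 4 members (7.84%, against 6.76%). No paired analysis was possible because the deposited table has no column for a library, so that no replicate number can be attached to the recovered reads. Depth limits the 15 members with a mean of up to 50, for which differences between libraries were mostly not detectable.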

Other observations

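After the values were seen, members were asked whether their 4 libraries fall into 2 higher and 2 lower ones, with the gap between the pairs wider than the gap within either. Of the 19 members with means over 50 and up to 1000 this held for 5, or 26.3%, against 28.2% of the 7889 genes in this range. It also held for 5 of the 9 members over 1000 with reads, for which no share of genes can be given. Libraries A and D were the higher pair for 5 of all 28 members, of which 1, *Sema4b*, lies in the range up to 1000, or 5.26% of 19, against 6.31% of the genes. The 5 were *Efnb2*, *Efnb1*, *Ephb3*, *Ephb4* and *Sema4b*. *Efnb2* had 3815 in library A, 2749.6 in B, 2933 in C and 3933 in D, *Efnb1* 1848 in library A, 1335 in B, 1477 in C and 1787 in D, and *Ephb3* 2194 in library A, 1635 in B, 1578 in C and 2339 in D. *Ephb4* had 1770.1 in library A, 1629.9 in B, 1594 in C and 1821 in D, and *Sema4b* 1040.0 in library A, 759.6 in B, 703 in C and 1101 in D. Libraries B and C were the higher pair for 2 members, or 10.5% of 19, against 8.40% of the genes. *Sema4c*, which is 1 of these, had 204 in library A, 311 in B, 288 in C and 184 in D, and *Nrp2*, the other, 128 in library A, 204 in B, 189 in C and 134 in D. For *Ephb1* the higher pair was C and D, for *Sema6c* B and D, and for *Plxna1* A and C. The pairs are not groups of the study, and which library is control or induced is not known here.

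Marker lists also differed between the libraries. Of the hair follicle stem cell markers, those with reads were *Foxc1*, with 1191 in A, 822 in B, 889.9 in C and 1266 in D, and *Tcf7l1*, with 670.1, 604, 569 and 518, so that *Foxc1* was high in A and D, as the 5 members above were, and *Tcf7l1* was lowest in D. The 3 suprabasal markers with reads summed to 1896 in A, 4551 in B, 2461 in C and 2102 in D. The 6 melanocyte markers summed to 2316, 3609, 2518 and 3043 in the same order, and the 5 sebaceous markers with reads to 694, 1571, 1217 and 941. Library B was the highest and A the lowest for each of these 3 lists of other cells. The same held for the fibroblast and T cell sums below and the endothelial sum above, but not for the muscle and myeloid sums. Most of the melanocyte sum was *Mitf*, which had 2026, 1846, 1862 and 2364 and was lowest in B. *Dct* had 170, 1041, 394 and 388, and *Mlana*, *Pmel*, *Kit* and *Tyr* were likewise highest in B and lowest in A. In the order A, B, C and D, the 3 fibroblast markers with reads summed to 593, 1078, 767 and 1038, the 4 T cell markers, mostly *Thy1*, to 792, 1326, 1233 and 887, and the 6 muscle markers, of which *Myh4* was at 0, to 151, 191, 229.9 and 255. Not every gene followed the sum of its list. *Ivl*, *Lor*, *Pparg*, *Plin2*, *Elovl3*, *Lum* and *Thy1* were lowest in A and highest in B. *Krt1* was lowest in D and *Pdgfra* in C, while *Dcn* was highest in D, *Awat1* in C and *Mc5r* in A. Of the T cell markers, *Cd3e* was highest in A, *Cd3g* was highest in C and *Cd2* was lowest in C. Of the 19 members with means over 50 and up to 1000, 8 were highest in B. Their relation to the markers was not tested.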
